A study of Mus musculus with 20 samples.

Results

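Rested CD5hi and rested CD5lo CD4 T cells of the mouse were compared by bulk RNA sequencing, in 8 of the 20 libraries of the study. The 8 libraries were chosen by their titles, 4 from each group, and not by any measured value. The cell type entry of the labels reads CD5lo for every sample, so groups were taken from the titles and the text on the gates. Rested CD5hi cells were naive CD4 T cells from the 15% with the highest surface CD5, kept in culture for 22 h with interleukin 7 at 10 ng per mL. Rested CD5lo cells were the 15% with the lowest CD5 and were cultured in the same way. The study took the cells out of the animal to ask which CD5-linked differences persist once naive cells no longer meet self peptide on MHC. The other 12 libraries, 4 in each group, were fresh CD5hi cells, fresh CD5lo cells and regulatory T cells (Treg), all lysed without culture.

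All mice were C57BL/6 animals of 8 to 12 weeks that carried a Foxp3-GFP reporter, with no other genotype among the groups. Cells came from spleen and lymph nodes. The naive gate was TCRβ+ CD4+ CD8- Foxp3-GFP- CD44lo, and cells carrying CD69 or surface markers of B cells, NK cells and myeloid cells were left out. The reporter excludes cells that express Foxp3 at the sort and does not follow what they express after 22 h. The series describes each group as 4 biological replicates from pooled male and female mice, so an animal is not the unit of replication here.

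CD5 is a transmembrane scavenger receptor on T cells that restrains signalling through the T cell receptor (TCR). Its level is set in the thymus by how strongly the receptor of a developing cell reads self peptide on MHC, and contact with self peptide in the periphery maintains it. CD5 is therefore used as a readout of self-reactivity among naive T cells. Interleukin 7 keeps naive cells alive in culture through STAT5 but does not engage the TCR.

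Total counts were 38211406 to 50654225 in the rested CD5hi libraries and 43429158 to 64477566 in the rested CD5lo libraries. Levels are given as CPM, counts relative to the library total after scaling by the trimmed mean of M-values over the 8 libraries. They are not corrected for gene length and are not compared between genes. The first 3 principal components held 39.3, 27.8 and 10.4% of the variance, and the groups separated on the second. Libraries with the same replicate number deviated together from their group means over 12147 genes, with r of 0.555, 0.456, 0.610 and 0.248 for numbers 1 to 4. Unlike numbers had r from -0.591 to 0.424, and some of these also deviated together. Rested CD5hi replicate 1 had r of 0.377 with rested CD5lo replicate 2, and replicate 2 had 0.424 with replicate 1. Rested CD5lo replicate 4 correlated more with rested CD5hi replicate 3 (0.386) than with rested CD5hi replicate 4 (0.248). No rested library looked like its label of pooled sexes. In replicate 3 the 4 summed Y-linked genes were at 330.0 CPM in rested CD5hi and 335.0 CPM in rested CD5lo, with Xist at 0.280 and 0.297 CPM. Replicates 1, 2 and 4 held 0.0892 CPM or less of the Y-linked genes, and Xist at 756 to 1180.0 CPM. Each pair was alike in this respect, and the fit compares libraries within a pair.

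The defining markers of the labelled cells were present. The 4 naive CD4 markers Ccr7, Lef1, Tcf7 and Il7r were detected, and their summed level, scaled over all 20 libraries like the other marker sums here, was 2850.0 to 3220.0 CPM in rested CD5hi libraries and 3170.0 to 3460.0 CPM in rested CD5lo libraries. Of these 4, 2 were called lower in rested CD5hi and none higher. Ccr7 was at 466 to 540 CPM in rested CD5hi and 560 to 620 CPM in rested CD5lo. Tcf7 was at 1270 to 1421 CPM in rested CD5hi and 1450 to 1568 CPM in rested CD5lo. The 5 B cell markers summed to 5.42 to 9.70 CPM in rested CD5hi and 4.56 to 9.65 CPM in rested CD5lo. The 8 myeloid markers counted summed to 5.56 to 9.06 CPM in rested CD5hi and 5.85 to 8.25 CPM in rested CD5lo. The 2 CD8 markers summed to 6.20 to 8.01 CPM in rested CD5hi and 18.5 to 22.1 CPM in rested CD5lo. The 6 NK and cytotoxic markers summed to 12.4 to 17.4 CPM in rested CD5hi and 24.5 to 34.4 CPM in rested CD5lo. Ncr1, the defining NK cell marker among them, was at 0 in all 8 rested libraries. In bulk libraries, fewer cells of a type and less RNA per cell cannot be told apart.

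After 22 h without self peptide, 776 genes were higher and 659 lower in rested CD5hi than in rested CD5lo cells. They are 6.39% and 5.43% of the 12147 genes tested, 11.8% together, by edgeR's quasi-likelihood test with the replicate pairs as a block (Benjamini-Hochberg adjusted p under 0.05). At 2-fold or more the balance was different, with 183 genes higher and 49 lower. In 1421 of the 1435 calls all 4 pairs moved the way of the call. The 4 rested CD5hi values did not overlap the 4 rested CD5lo values in 905 of the calls, and over all genes tested 10.7% did not overlap.

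The size of the list rests on which pairs enter. Leaving out replicate 1, 2 or 3 gave 695, 657 and 1029 calls, and leaving out replicate 4 gave 2753. In all, 588 of the 1435 calls stayed whichever pair was left out, 347 of them higher and 241 lower, and these are called stable below. Without the pairing 495 genes were called, all of them among the 1435. Among the genes named below, 4632428N05Rik, Bbc3, Cd40lg, Cd44, Fos, Foxp3, Gadd45b, Gbp2, Gbp9, Gimap7, Igfbp4, Iigp1, Il2ra, Irf4, Jun, Maf, Psmb9, Slc28a2, Sox4, Tagap, Txk and Vwce were called with the pairing and not without it, at adjusted p between 0.0505 and 0.761 without it.

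**Figure D1:**
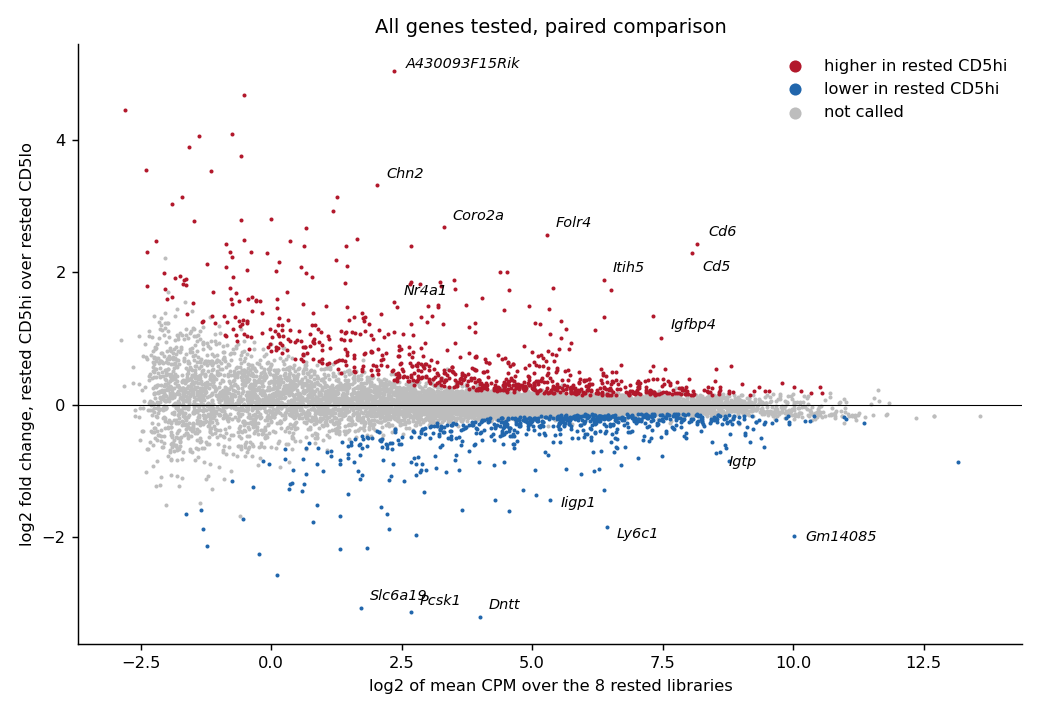
Log2 fold change, rested CD5hi over rested CD5lo, against the log2 mean CPM of the 8 rested libraries, 1 point for each of the 12147 genes tested. The 776 genes called higher are red and the 659 called lower are blue, with named genes of both directions, from A430093F15Rik at the top to Dntt at the bottom.

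The gene behind the sort was still far apart after rest. Cd5 had 440.4, 437, 468 and 424 CPM in the 4 rested CD5hi libraries, against 84.8, 85.1, 94.9 and 96.5 CPM in the 4 rested CD5lo libraries. The groups did not overlap, and the log2 fold change was 2.29 ± 0.051 (edgeR adjusted p = 6.86e-09). Cd6, which encodes a related scavenger receptor that binds ALCAM, had 468, 463, 536 and 475 CPM in rested CD5hi, against 88, 86.2, 94.2 and 90.1 CPM in rested CD5lo. It differed by 2.44 ± 0.043 (adjusted p = 1.37e-09), with the same separation of the groups. Cells were sorted on CD5 protein, so the direction of Cd5 was set by the gate, while Cd6 was not a gate marker.

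The change extended over neighbouring genes. In RefSeq's GRCm38.p6 annotation the order along chromosome 19 is Vps37c, Cd5, the long noncoding RNA A430093F15Rik and Cd6, with no other gene between them. A430093F15Rik had the largest called rise among genes with a mean of at least 5 CPM in 1 group. Its level was 9.97, 8.36, 10.6 and 11 CPM in rested CD5hi, against 0.354, 0.304, 0.213 and 0.322 CPM in rested CD5lo, a log2 fold change of 5.04 ± 0.16 (adjusted p = 4.89e-08). In GENCODE vM21 its start site lies 1945 bases from that of Cd5, on the opposite strand, so that the pair is transcribed away from each other. Vps37c, a subunit of the ESCRT-I sorting complex, rose by 0.61 ± 0.069, with 32.9, 33.3, 23.6 and 30 CPM in rested CD5hi, against 20.7, 19.9, 18.3 and 19.1 CPM in rested CD5lo. Of the 15 annotated genes centred on Cd5, 10 were tested, and the 7 other than Cd5, Cd6 and the noncoding RNA lay between -1.31 and 0.61. Besides Vps37c only Vwce was called among these 7, and it was lower, at 0.838 ± 0.243 CPM in rested CD5hi and 2.18 ± 1.1 CPM in rested CD5lo (SD, n = 4 each). These neighbours were looked at after their values were seen. The strand setting of the counts is not given in the sources used here, and whether reads run through from 1 gene into the next was not tested.

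Cd4, Cd44 and Foxp3, also used in the gate, differed by less than Cd5, and the CD8 genes are described further on. Cd4 was lower, at 702 ± 27.4 CPM in rested CD5hi and 851 ± 3.61 CPM in rested CD5lo (SD, n = 4 each), a log2 fold change of -0.28 ± 0.046. Its call was lost without replicate 1 (adjusted p = 0.0533). Cd44, the adhesion receptor used to exclude memory cells, fell by 0.47 on the log2 scale, to 7.85 ± 1.21 CPM in rested CD5hi, against 10.8 ± 1.57 CPM in rested CD5lo. Foxp3, the lineage factor of Treg cells, was at 28.6, 27.9, 23.6 and 29.7 CPM in rested CD5hi, against 22.5, 21.6, 22.6 and 22.6 CPM in rested CD5lo. Its log2 fold change of 0.30 ± 0.066 passed the test with 4 pairs, and did not without replicate 1 or 2 (adjusted p = 0.109 and 0.126).

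**Figure D2:**
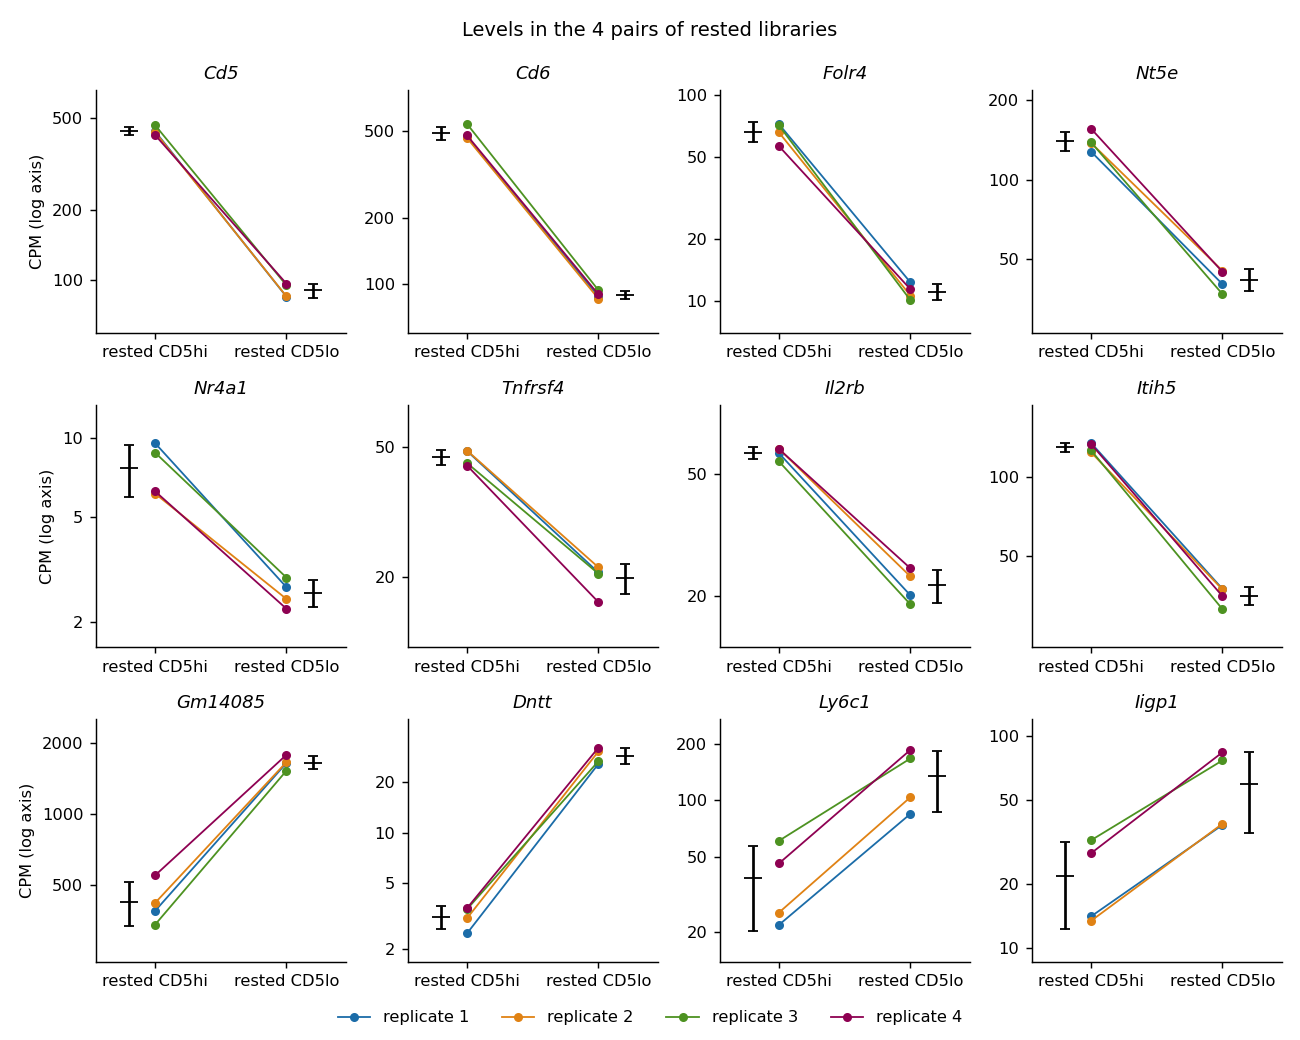
CPM on log axes for 12 genes, with rested CD5hi at the left and rested CD5lo at the right of each panel, a line for each replicate pair, and the mean ± SD (n = 4) in black. Lines run almost parallel for Cd5 and Cd6, while for Ly6c1 and Iigp1 replicates 3 and 4 sit above replicates 1 and 2 in both groups.

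Among receptors that restrain T cells, the genes that passed the test were mostly higher in rested CD5hi cells. Among 21 tested members of the list of coinhibitory receptors and surface inhibitors, 7 rose and 1 fell, with a median log2 fold change of 0.269, against 0.0024 over all genes tested. The calls were 38.1% of the list, beside 11.8% over all genes tested, and the shares of later lists are to be read beside the same 11.8%. All 7 rises were stable, and 2 of them were Cd5 and Cd6. Folr4 encodes Juno, the egg receptor for the sperm protein Izumo1, which also marks anergic and regulatory CD4 cells. It was at 72.3, 65.9, 71.3 and 56.5 CPM in rested CD5hi, against 12.3, 10.7, 10.1 and 11.4 CPM in rested CD5lo. The difference was 2.57 ± 0.077 (adjusted p = 4.23e-08) and the groups did not overlap. Nt5e, which encodes the adenosine-producing ectoenzyme CD73, was at 128, 138, 138 and 156 CPM in rested CD5hi, against 40.3, 45.3, 37 and 44.9 CPM in rested CD5lo. It rose by 1.74 ± 0.055 (adjusted p = 5.09e-08). Pdcd1, which encodes the inhibitory receptor PD-1, was scarce in both groups. It reached 2.67, 3.53, 2.64 and 2.23 CPM in rested CD5hi, against 0.591, 0.13, 0.402 and 0.579 CPM in rested CD5lo, a log2 fold change of 2.67 ± 0.34 (adjusted p = 0.00066). Cd200, whose product signals to the inhibitory receptor CD200R on myeloid cells, rose by 1.89 ± 0.087. The single fall was 4632428N05Rik, the gene of the checkpoint protein VISTA. It was at 379 ± 57.8 CPM in rested CD5hi and 441 ± 53 CPM in rested CD5lo (SD, n = 4 each), and its call was lost without replicate 1 or 2 (adjusted p = 0.118 and 0.0874).

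Genes associated with Treg cells were also higher in these Foxp3-GFP-negative cells. Of 29 tested members of a Treg signature list, 19 rose and 2 fell (72.4%, beside 11.8% over all genes). Of the 21 calls 16 were stable, and the median was 0.765. The list shares Folr4 and Nt5e with the surface inhibitors, and Tnfrsf4 and Tnfrsf9 with the TCR-induced genes described below. Gpr83, a G protein-coupled receptor typical of Treg cells, was at 29, 28.9, 19.7 and 21.4 CPM in rested CD5hi, against 10.6, 8.85, 5.84 and 7.27 CPM in rested CD5lo (1.61 ± 0.073). Ikzf2, which encodes the Treg transcription factor Helios, was at 4.04, 5.16, 5.05 and 5.63 CPM in rested CD5hi, against 2.2, 2.0, 1.3 and 2.41 CPM in rested CD5lo, and rose by 1.33 ± 0.17. Its paralog Ikzf4, encoding Eos, rose by 0.65 ± 0.077. Il2ra, the high-affinity subunit of the interleukin 2 receptor, went the other way. It was at 94.7, 78.4, 77.4 and 89.6 CPM in rested CD5hi, against 106, 97.8, 102 and 108 CPM in rested CD5lo, a fall of 0.29 on the log2 scale (adjusted p = 0.00303). The 4 Treg markers Foxp3, Ikzf2, Il2ra and Ctla4 summed to 148 to 168 CPM in rested CD5hi and 160.0 to 174 CPM in rested CD5lo.

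The Treg libraries share no sample with the rested ones and gave a further reference. Against fresh CD5lo cells, 29.2% of 13309 genes were higher in Treg and 29.4% lower, by edgeR's quasi-likelihood test at the same threshold. That fit held all 20 libraries, the rested ones among them, with no replicate block, unlike the paired fit of the 8 rested libraries. Of the 776 genes higher in rested CD5hi, 509 (65.6%) were higher in Treg and 125 were lower. Of the 659 genes lower in rested CD5hi, 372 (56.4%) were lower in Treg and 161 were higher. Genes that are well measured pass the test more often in any comparison. Treg replicates 1, 2 and 4 held Xist at 1520.0 to 1750.0 CPM with 0.15 CPM or less of the Y-linked genes, while Treg replicate 3 and all 4 fresh CD5lo libraries held the Y-linked genes at 335.0 to 395.0 CPM with 0.624 CPM or less of Xist. The part of either in the overlap was not tested.

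Transcripts that TCR stimulation induces were mixed, with the larger changes upward. In a list of 26 tested TCR-induced genes 10 rose and 4 fell (53.8%, beside 11.8% over all genes). Of the 14 calls 8 were stable, and the median was 0.168. Nr4a1, the orphan nuclear receptor gene used as a reporter of TCR signalling, was at 9.54, 6.15, 8.79 and 6.27 CPM in rested CD5hi, against 2.72, 2.45, 2.95 and 2.25 CPM in rested CD5lo. All 4 pairs differed in that direction, by 1.55 ± 0.11 (adjusted p = 1.58e-05). Tnfrsf4, encoding the costimulatory receptor OX40, was at 48.6, 48.7, 44.6 and 43.9 CPM in rested CD5hi, against 20.7, 21.5, 20.5 and 16.8 CPM in rested CD5lo (1.23 ± 0.057). Tnfrsf9, encoding 4-1BB, was scarce, at 2.77, 1.83, 2.84 and 2.79 CPM in rested CD5hi, against 0.492, 0.651, 0.709 and 0.691 CPM in rested CD5lo. It rose by 2.0 ± 0.21. Bhlhe40, a transcriptional repressor induced on activation, rose by 1.84 ± 0.22, and Spry1, a feedback inhibitor of ERK signalling, by 1.33 ± 0.14. The 4 falls were Il2ra, Irf4, Cd40lg and Tagap, the last 3 of them named after their values were seen. Irf4, a transcription factor graded by TCR strength, had overlapping groups at 6.68, 5.34, 9.71 and 9.51 CPM in rested CD5hi, against 7.54, 6.72, 13.2 and 15.8 CPM in rested CD5lo. Its call was lost without replicate 2 or 3 (adjusted p = 0.0727 and 0.0626). The falls of Cd40lg and Tagap were 0.17 and 0.20 on the log2 scale, and both calls were lost without replicate 1, 2 or 3 (adjusted p = 0.0636 to 0.204 for Cd40lg and 0.0532 to 0.0849 for Tagap).

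The AP-1 genes moved in opposite directions. Of 15 tested immediate early genes 3 rose and 2 fell (33.3%, beside 11.8% over all genes), and all 5 calls were stable. Fosb was at 1.5, 0.867, 1.1 and 0.988 CPM in rested CD5hi, against 0.295, 0.477, 0.331 and 0.338 CPM in rested CD5lo, Fosl2 rose by 0.83 ± 0.11, and Fos rose by 0.40 ± 0.059. Jun, the partner of these Fos proteins, was lower within every pair, at 10.8, 9.79, 14.8 and 12.2 CPM in rested CD5hi, against 14.2, 15.5, 21.2 and 21.2 CPM in rested CD5lo. The 2 groups overlapped because replicates 3 and 4 were higher than 1 and 2 in both, and the paired difference was -0.60 ± 0.078 (adjusted p = 0.000789). The antiproliferative gene Btg2 was lower as well, at 305 ± 17.3 CPM in rested CD5hi and 371 ± 21.4 CPM in rested CD5lo (SD, n = 4 each).

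Components of TCR signalling itself changed in both directions. Of 40 intracellular brakes on TCR signalling 7 rose and 6 fell (32.5%, beside 11.8% over all genes), with a median of -0.0029. Ubash3b, the phosphatase Sts-1 that dampens ZAP-70 signalling, was at 35.9, 36.9, 40.1 and 36.5 CPM in rested CD5hi, against 19.1, 19.2, 21.6 and 20.9 CPM in rested CD5lo, a difference of 0.89 ± 0.052. Ndrg1, a T cell anergy factor, rose by 0.85 ± 0.045. Sit1, a transmembrane adaptor that limits TCR signals, was lower by 0.56 on the log2 scale, at 34.2 ± 5.71 CPM in rested CD5hi and 50.1 ± 4.99 CPM in rested CD5lo (SD, n = 4 each). Of 32 proximal signalling genes 3 rose and 6 fell (28.1%). The 3 stable calls were the Tec-family kinases Tec (-0.71 ± 0.053) and Txk (-0.33 ± 0.04), and the NF-κB adaptor Malt1 (0.28 ± 0.042). P2rx7, an ATP-gated channel on the calcium signalling list, was at 5.74, 5.03, 2.84 and 4.23 CPM in rested CD5hi, against 0.787, 1.08, 1.32 and 0.916 CPM in rested CD5lo (2.1 ± 0.24).

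**Figure D3:**
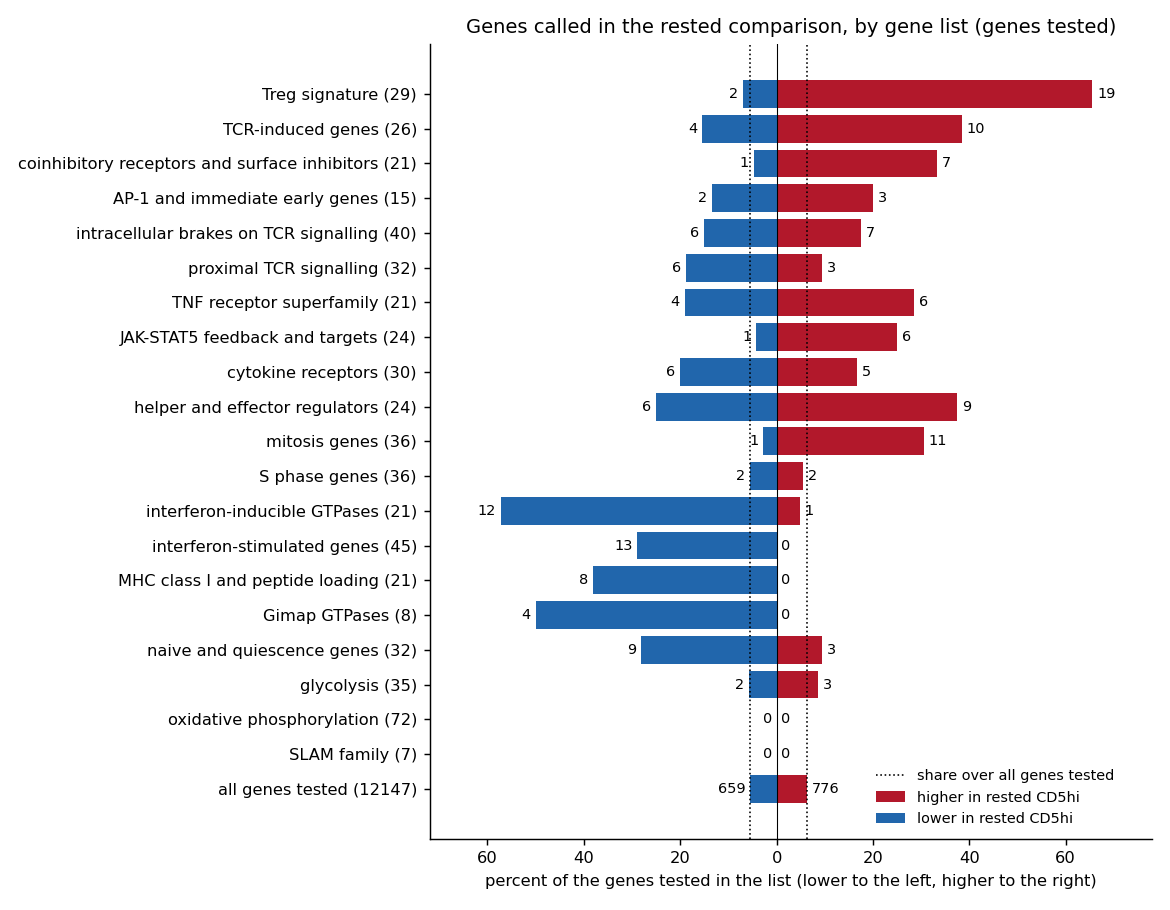
Percent of the tested genes of each list that were called higher (red, to the right) or lower (blue, to the left) in rested CD5hi, with the counts beside the bars and dotted lines at the shares over all genes tested (6.39% and 5.43%). The Treg signature (19 higher of 29) and the interferon-inducible GTPases (12 lower of 21) lie at opposite ends, while oxidative phosphorylation (0 of 72) and the SLAM family (0 of 7) have no call.

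Interferon-inducible genes were lower in rested CD5hi cells. Immunity-related GTPases and guanylate-binding proteins are cell-autonomous defence proteins that interferons induce. Of 21 tested members 12 were lower and 1 was higher (61.9%, beside 11.8% over all genes). Of the 13 calls 8 were stable, and the median was -0.262. Promoter sequences are shown for 3 of the stable falls, because these genes moved together and their promoters carry motifs linked to interferon responses. The motifs searched on both strands were TTCNNNGAA, the interferon-gamma activated site, and a direct repeat of GAAA with any 2 bases between the copies, the core of the interferon-stimulated response element. Capitals mark the matches in the 250 bases before each start, read from RefSeq's GRCm38.p6 promoters on the plus strand of chr11:58199306-58199555, chr11:58214727-58214976 and chr3:142620413-142620662.
Igtp: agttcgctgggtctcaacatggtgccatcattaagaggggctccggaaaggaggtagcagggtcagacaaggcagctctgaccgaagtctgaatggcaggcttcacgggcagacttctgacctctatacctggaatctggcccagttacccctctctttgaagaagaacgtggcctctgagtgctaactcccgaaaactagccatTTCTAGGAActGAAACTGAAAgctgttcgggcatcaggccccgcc
Irgm2: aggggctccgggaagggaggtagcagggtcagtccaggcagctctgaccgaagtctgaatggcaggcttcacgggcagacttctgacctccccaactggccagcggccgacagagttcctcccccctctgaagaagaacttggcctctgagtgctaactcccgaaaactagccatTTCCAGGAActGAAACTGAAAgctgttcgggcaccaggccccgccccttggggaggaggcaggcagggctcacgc
Gbp2: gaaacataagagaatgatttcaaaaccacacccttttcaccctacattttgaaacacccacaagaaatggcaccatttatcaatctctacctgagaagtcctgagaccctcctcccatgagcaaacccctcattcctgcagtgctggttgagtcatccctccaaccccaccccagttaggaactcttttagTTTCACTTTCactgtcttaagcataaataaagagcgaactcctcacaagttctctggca
Igtp and Irgm2 each hold 1 match to either motif, side by side, and Gbp2 holds 1 match to the GAAA repeat, here read on the other strand. Of the 21 members, 10 had a promoter in the table, of which 9 (90.0%) held the GAAA repeat and 6 (60.0%) held TTCNNNGAA. Over all 27025 genes in the table the shares were 3.46% and 8.13%. The members were listed as genes that interferons induce, so these shares say nothing about CD5hi against CD5lo. A match is a string of letters and not an observed binding site.

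Iigp1, which attacks the vacuoles of intracellular parasites, fell the most of this family. It was at 14.1, 13.5, 32.3 and 28 CPM in rested CD5hi, against 38.1, 38.6, 76.7 and 83.7 CPM in rested CD5lo, a log2 fold change of -1.44 ± 0.062 (adjusted p = 4.58e-07). Replicates 3 and 4 were higher than replicates 1 and 2 in both groups, and the difference was present within each pair. Igtp, whose product acts on the same vacuoles, was at 248, 249.7, 340.4 and 339 CPM in rested CD5hi, against 389.7, 422, 549.7 and 566 CPM in rested CD5lo, a difference of -0.71 ± 0.042. Irgm2, a regulator of these GTPases, fell by 0.65, and Gbp2 by 0.36, on the log2 scale. Gbp9 was the single rise, at 0.20 ± 0.049, and its call was lost without replicate 1 or 2 (adjusted p = 0.138 and 0.103). Tgtp1 and Tgtp2 are near-identical copies whose reads cannot be assigned with certainty.

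Other interferon-linked lists moved the same way by smaller amounts. Of 45 tested interferon-stimulated genes 13 fell and none rose (28.9%, beside 11.8% over all genes), with 4 stable calls and a median of -0.0686. The lipid-anchored surface proteins Ly6a and Ly6e were the largest of these falls. Ly6a (Sca-1) was at 19.6, 18.4, 27.2 and 23.9 CPM in rested CD5hi, against 36.5, 39.2, 47.6 and 53.1 CPM in rested CD5lo (-0.99 ± 0.065). Ly6e was at 293, 286, 354 and 323 CPM in rested CD5hi, against 539, 561, 592 and 573 CPM in rested CD5lo (-0.86 ± 0.049). Of 21 genes of MHC class I and peptide loading 8 fell and none rose (38.1%), with a median of -0.134 and 1 stable call. That call was Psmb9, an immunoproteasome subunit, at 75 ± 8.05 CPM in rested CD5hi and 91.1 ± 4.68 CPM in rested CD5lo (SD, n = 4 each). Within MHC class II and B cell transcripts 1 of 18 was called (5.56%, under the share over all genes), H2-DMa, which fell by 0.75. In the promoter table the GAAA repeat was held by 12 of 33 matched interferon-stimulated genes and by 3 of 18 class I genes.

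**Figure D4:**
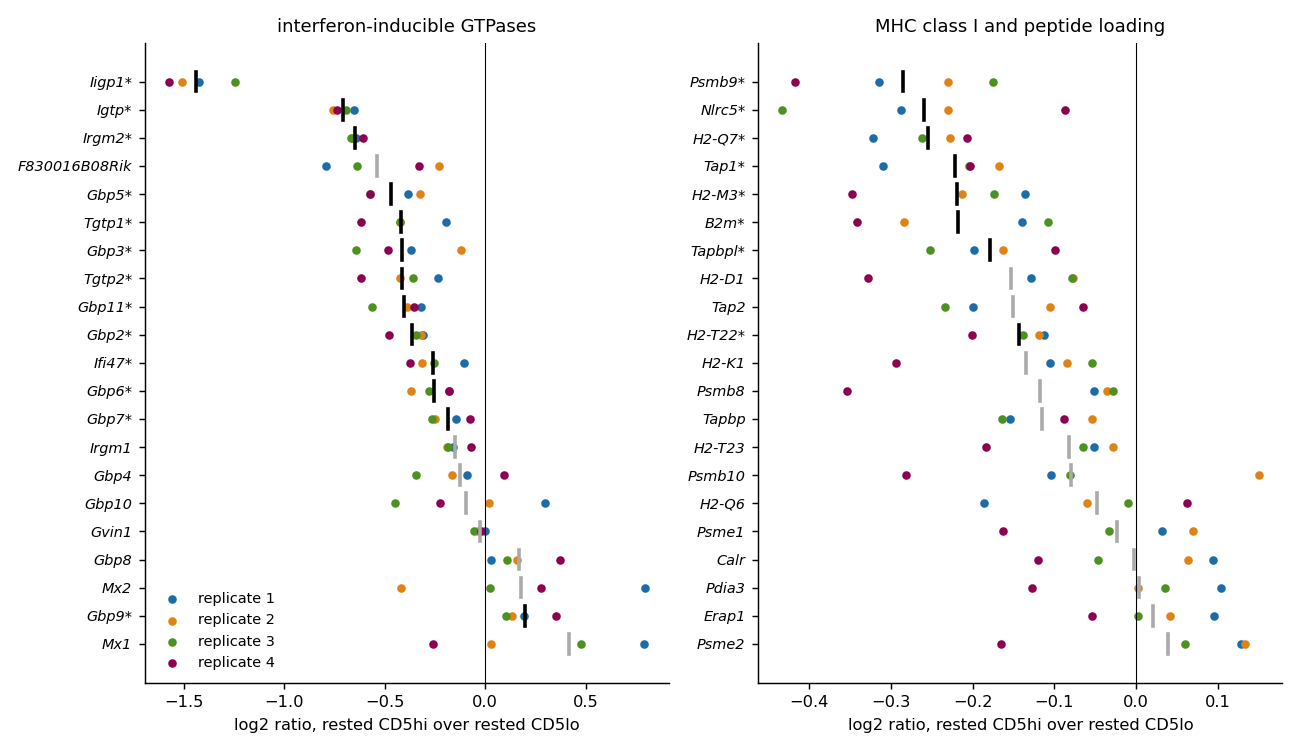
Log2 ratio of rested CD5hi over rested CD5lo within each replicate pair (coloured points) for the tested genes of 2 lists, with the fitted log2 fold change as a vertical bar, black and starred where called and grey where not. Iigp1, Igtp and Irgm2 lie left of 0 in all 4 pairs, and the class I genes lie mostly between -0.4 and 0.1.

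Large rises outside these groups included Chn2, Coro2a and Lama5. Chn2, which encodes the Rac-inactivating protein beta-chimaerin, was at 7.97, 6.15, 7.72 and 7.77 CPM in rested CD5hi, against 0.748, 1.13, 0.425 and 0.659 CPM in rested CD5lo, a difference of 3.32 ± 0.22 (adjusted p = 7.35e-06). Coro2a, an actin-binding coronin, was at 17.8, 16.9, 18.1 and 15.5 CPM in rested CD5hi, against 2.32, 2.99, 3.36 and 2.07 CPM in rested CD5lo (2.69 ± 0.11). Lama5, a laminin chain, was at 5.38, 6.49, 4.7 and 4.66 CPM in rested CD5hi, against 1.0, 1.32, 0.756 and 0.691 CPM in rested CD5lo. Each of these was separated without overlap. Acvr1c, the activin receptor ALK7, rose by 2.01 ± 0.13, and Wfikkn2, a secreted binder of myostatin and GDF11, by 2.0 ± 0.058. Itih5, a heavy chain of the inter-alpha-trypsin inhibitors of the extracellular matrix, was at 136, 125, 127 and 134 CPM in rested CD5hi, against 37.4, 37.2, 31.2 and 35.1 CPM in rested CD5lo (1.89 ± 0.052). The prostanoid receptor genes Ptger2 and Ptgir rose by 2.39 ± 0.15 and 1.86 ± 0.11, and the lysin-motif gene Lysmd2 by 2.4 ± 0.10.

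Dntt had the largest fall of the 12147 genes tested. It encodes terminal transferase, which adds untemplated bases to rearranging receptor genes in the thymus. It was at 2.49, 3.06, 3.47 and 3.52 CPM in rested CD5hi, against 25.8, 30.6, 26.8 and 32.3 CPM in rested CD5lo, a log2 fold change of -3.2 ± 0.086 (adjusted p = 2.77e-08). Cd8b1, the CD8 beta chain, was at 7.46, 5.74, 6.7 and 5.3 CPM in rested CD5hi, against 20.6, 19.3, 18.9 and 17.1 CPM in rested CD5lo. Cd8a, its partner chain in CD8 T cells, was at 0.408 ± 0.192 CPM in rested CD5hi and 0.683 ± 0.155 CPM in rested CD5lo (SD, n = 4 each), and did not pass the test (adjusted p = 0.227). It was lower without replicate 4 (adjusted p = 0.0152), in which rested CD5hi was the higher. Not every thymocyte gene was lower: on a list of 16 tested, 4 rose and 4 fell (50.0%, beside 11.8% over all genes), and Sox4 rose by 0.62 ± 0.076.

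Pcsk1, a prohormone convertase, was at 1.02, 1.0, 1.66 and 1.55 CPM in rested CD5hi, against 8.37, 11, 13.3 and 13.1 CPM in rested CD5lo. The neutral amino acid transporter gene Slc6a19 fell by 3.07 on the log2 scale, the transporter gene Slc16a5 by 2.16, and the carbonic anhydrase gene Car2 by 1.97. Abhd15, Kcnj16 (a potassium channel) and Nrn1 (neuritin) fell by 1.88, 1.65 and 1.55. Gprin3 was at 13.1, 12.9, 7.91 and 13.3 CPM in rested CD5hi, against 39.8, 36.4, 30.4 and 35.1 CPM in rested CD5lo, with replicate 3 the lowest of the rested CD5hi libraries. Ly6c1, whose copy Ly6c2 is nearly identical so that reads may be shared, was at 21.9, 25.5, 61.1 and 46.4 CPM in rested CD5hi, against 84.8, 104, 167 and 185 CPM in rested CD5lo (-1.85 ± 0.089).

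A pair of predicted genes fell from high levels and were named after their values were seen. Gm14085, the nucleoside transporter gene Slc28a2b in RefSeq, was at 388, 419.7, 339.7 and 549 CPM in rested CD5hi, against 1642, 1656, 1523 and 1778 CPM in rested CD5lo, a log2 fold change of -1.98 ± 0.075 (adjusted p = 2.22e-07). The related Slc28a2 was at 339 ± 36.9 CPM in rested CD5hi and 406 ± 27 CPM in rested CD5lo (SD, n = 4 each). Its fall of 0.26 was lost without replicate 1 or 2 (adjusted p = 0.069 and 0.0608), and how reads common to both copies were counted is not given in the sources used here. A130040M12Rik was at 6918, 7256, 5961 and 5941 CPM in rested CD5hi, against 12206, 12791, 11686 and 10884 CPM in rested CD5lo (-0.87 ± 0.064, adjusted p = 1.62e-05).

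Receptors for survival cytokines changed unevenly. Of 30 tested cytokine receptor genes 5 rose and 6 fell (36.7%, beside 11.8% over all genes). Il2rb, the subunit through which interleukins 2 and 15 signal, was at 58.6, 60.5, 55.1 and 60.4 CPM in rested CD5hi, against 20.1, 23.2, 18.8 and 24.6 CPM in rested CD5lo. The groups were apart by 1.44 ± 0.057 (adjusted p = 3.08e-07), opposite in direction to Il2ra. Of 24 JAK-STAT5 feedback genes and targets 6 rose and 1 fell (29.2%), 4 of them stable. Cish, a STAT5-induced inhibitor of cytokine signalling, was at 56.2, 53.6, 52.2 and 48.8 CPM in rested CD5hi, against 34.1, 28.4, 31.1 and 30.5 CPM in rested CD5lo (0.77 ± 0.053). The cytokine gene Osm rose by 0.58 ± 0.053 and the repressor gene Gfi1 by 0.62 ± 0.097. Socs3, which restrains STAT3, was the 1 fall, at 183 ± 9.08 CPM in rested CD5hi and 236 ± 11.4 CPM in rested CD5lo (SD, n = 4 each). Of 21 TNF receptor superfamily and related genes 6 rose and 4 fell (47.6%). Among the rises were Tnfrsf25 (0.49 ± 0.043) and the costimulatory receptor gene Icos (0.54 ± 0.053). Among ligands, Tnfsf11, which encodes RANKL, was at 2.64, 2.2, 3.27 and 2.32 CPM in rested CD5hi, against 0.138, 0.607, 0.402 and 0.836 CPM in rested CD5lo. Tnfsf4, the ligand of OX40, also rose, by 2.08 ± 0.32 (adjusted p = 0.00237), and was at 1.12 CPM or less in every library.

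Regulators of helper and effector fate were split. Of 24 tested 9 rose and 6 fell (62.5%, beside 11.8% over all genes), with 7 stable calls. Id2, an inhibitor of E proteins, was at 111, 101, 145 and 115 CPM in rested CD5hi, against 37.8, 40.6, 52.9 and 57.4 CPM in rested CD5lo, a difference of 1.33 ± 0.078 (adjusted p = 3.38e-06). Eomes and Maf, regulators of effector and follicular fates, were scarce, at 1.23 ± 0.312 and 2.45 ± 0.563 CPM in rested CD5hi and 0.414 ± 0.161 and 1.31 ± 0.526 CPM in rested CD5lo (SD, n = 4 each), and both rose. Hopx, a small homeodomain protein, rose by 0.84 ± 0.11. Of 18 cytotoxic and NK genes 4 rose and 3 fell (38.9%): Prf1, which encodes perforin, fell by 0.98 on the log2 scale, while the granzyme gene Gzmc rose by 2.02 ± 0.24. Prf1 moved with the summed NK and cytotoxic markers given above, of which it is one. Ahnak, a large scaffold protein raised in experienced T cells, was at 39.2, 38, 60.7 and 59.1 CPM in rested CD5hi, against 12.4, 17.4, 28 and 29.3 CPM in rested CD5lo (1.22 ± 0.092).

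Mitotic transcripts were low in both groups and somewhat higher in rested CD5hi cells. Of 36 tested mitosis genes 11 rose and 1 fell (33.3%, beside 11.8% over all genes), 35 had a fold change above 0, and the median was 0.409. Only 5 of the 12 calls were stable. Mki67, the proliferation marker Ki-67, was at 7.26, 8.34, 6.27 and 9.04 CPM in rested CD5hi, against 3.09, 4.01, 1.8 and 2.43 CPM in rested CD5lo (1.48 ± 0.15). Cenpf, a kinetochore gene, was at 1.75 ± 0.177 CPM in rested CD5hi and 0.804 ± 0.148 CPM in rested CD5lo (SD, n = 4 each). Kif23, a kinesin of cytokinesis, was the exception, at 3.96, 5.05, 3.74 and 4.62 CPM in rested CD5hi, against 11.3, 12.1, 9.5 and 10.6 CPM in rested CD5lo (-1.32 ± 0.09). In contrast, S phase genes stood at the background, with 2 rises and 2 falls among 36 tested (11.1%, beside 11.8% over all genes). Cdt1, which licenses replication origins, fell by 0.28 and held the 1 stable call. The largest rise on the list was greater in size, at 0.883. Of 27 p53 targets 7 rose and 1 fell (29.6%). Cdkn1a, the CDK inhibitor p21, was at 1.37, 0.964, 2.31 and 1.63 CPM in rested CD5hi, against 0.394, 0.26, 0.378 and 0.225 CPM in rested CD5lo. Gadd45b and the BH3-only gene Bbc3 rose by 1.07 ± 0.14 and 0.66 ± 0.07.

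Called genes of the naive and quiescent state were lower more often than higher. On a list of 32 naive and quiescence genes 9 fell and 3 rose (37.5%, beside 11.8% over all genes), with a median of -0.0809 and 4 stable calls. The larger changes were upward all the same. Igfbp4, an insulin-like growth factor binding protein of naive T cells, was at 293, 293, 191 and 163 CPM in rested CD5hi, against 162, 155, 89.2 and 73.5 CPM in rested CD5lo (1.0 ± 0.055), again with replicates 1 and 2 apart from 3 and 4. Dapl1 was at 56.4, 61.2, 83.2 and 64.6 CPM in rested CD5hi, against 22.9, 28.4, 30.2 and 28.8 CPM in rested CD5lo (1.26 ± 0.061). Tsc22d3, the glucocorticoid-induced leucine zipper, fell by 0.30. Of 8 Gimap GTPases, which support survival of naive T cells, 4 fell and none rose (50.0%), led by Gimap7 at 47.2, 52.4, 79.6 and 65.8 CPM in rested CD5hi, against 77.8, 87.4, 109 and 121 CPM in rested CD5lo (-0.70 ± 0.064). Other falls at substantial level were the phosphodiesterase gene Pde3b (-0.62 ± 0.045), the histone demethylase gene Kdm6b (-0.55 ± 0.042), the deacetylase gene Hdac7 (-0.47 ± 0.056) and Wdr12 (-0.64 ± 0.039), a factor of ribosome biogenesis. Their lists did not fall with them. Wdr12 was the 1 fall beside 5 rises among 46 ribosome biogenesis genes. Kdm6b and Hdac7 were the 2 falls beside 5 rises among 36 chromatin genes, and Pde3b was 1 of 4 falls beside 6 rises among 30 RGS and phosphodiesterase genes.

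Metabolic genes were near or under the background. None of 72 oxidative phosphorylation genes was called, and their fold changes lay between -0.21 and 0.195. Of 35 glycolysis genes 3 rose and 2 fell (14.3%), and of 35 cholesterol and fatty acid synthesis genes 4 rose and 1 fell (14.3%). Pdk1, which restrains entry of pyruvate into mitochondria, had the largest fall on the glycolysis list. It was at 291, 291, 251 and 276 CPM in rested CD5hi, against 502, 491, 403 and 445 CPM in rested CD5lo, a difference of -0.73 ± 0.041 (adjusted p = 2.88e-06). The largest rise on that list was greater in size, at 1.27, for a gene at 1.02 CPM in rested CD5hi and 0.428 CPM in rested CD5lo. Its call was not stable. No member of the SLAM family was called among 7 tested, with fold changes from -0.032 to 0.147.

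The CD5 difference after rest was then set against that in fresh cells, in 1 model of the 16 naive libraries with the pairs of each state as blocks. In this model 2806 genes differed by CD5 in fresh and 2372 in rested cells. The 1465 called in both in the same direction were 61.8% of the rested and 52.2% of the fresh calls, and 25 were called in opposite directions. The interaction, rested difference minus fresh difference, was called for 354 of 12797 genes (2.77%), negative for 1.88% and positive for 0.883%. The difference was smaller in size after rest for 250 of them and larger for 104, and for 124 the fitted differences had opposite signs in rested and fresh cells. Without the pairing the interaction was called for 42 genes. Leaving out 1 fresh pair gave 235, 220, 204 and 213 calls for replicates 1 to 4, and leaving out 1 rested pair gave 239, 230, 414 and 824. All 8 fresh libraries carried Y-linked transcripts without Xist, and only replicate 3 of the rested libraries did. State and this property therefore cannot be told apart, either in levels set across states or in the interaction.

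Several of the strongest CD5-linked genes were closer together after rest. Itih5 had a log2 fold change of 1.89 in rested and 4.33 in fresh cells, an interaction of -2.45 ± 0.11 (adjusted p = 7.2e-09). Its mean was 133 ± 5.24 CPM in rested CD5hi, 36.1 ± 2.9 CPM in rested CD5lo, 60.3 ± 6.77 CPM in fresh CD5hi and 3.0 ± 0.936 CPM in fresh CD5lo cells, scaled over these 16 libraries (SD, n = 4 each). Gm4956, a transcribed pseudogene in RefSeq, had 3 to 10 counts in rested CD5hi, against 2 to 11 counts in rested CD5lo libraries. It had 344 to 501 counts in fresh CD5hi, 5 to 10 in fresh CD5lo and 4983 to 8691 in Treg libraries. It was therefore filtered from the comparison of rested cells, and its interaction was -5.76 ± 0.52 (adjusted p = 3.46e-05). D630039A03Rik, Mtap6 (a microtubule-stabilising protein), Qrfp (a neuropeptide) and Fibcd1 (an acetyl-group receptor) had interactions of -2.08, -2.07, -1.49 and -1.33, each higher in CD5hi in both states. Cd5 itself differed by 2.29 in rested and 2.74 in fresh cells (interaction -0.45 ± 0.059, adjusted p = 0.000478). For its neighbour Cd6 the values were 2.43 in rested and 2.31 in fresh cells, and the interaction of 0.12 did not pass the test (adjusted p = 0.24). Smaller differences after rest were also called for Nt5e (-0.87), Il2rb (-0.77), Ikzf4 (-1.02), Ndrg1 (-0.82), Ubash3b (-0.50), Id2 (-0.67), Bbc3 (-0.69) and Sox4 (-0.49), given as interactions on the log2 scale.

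**Figure D5:**
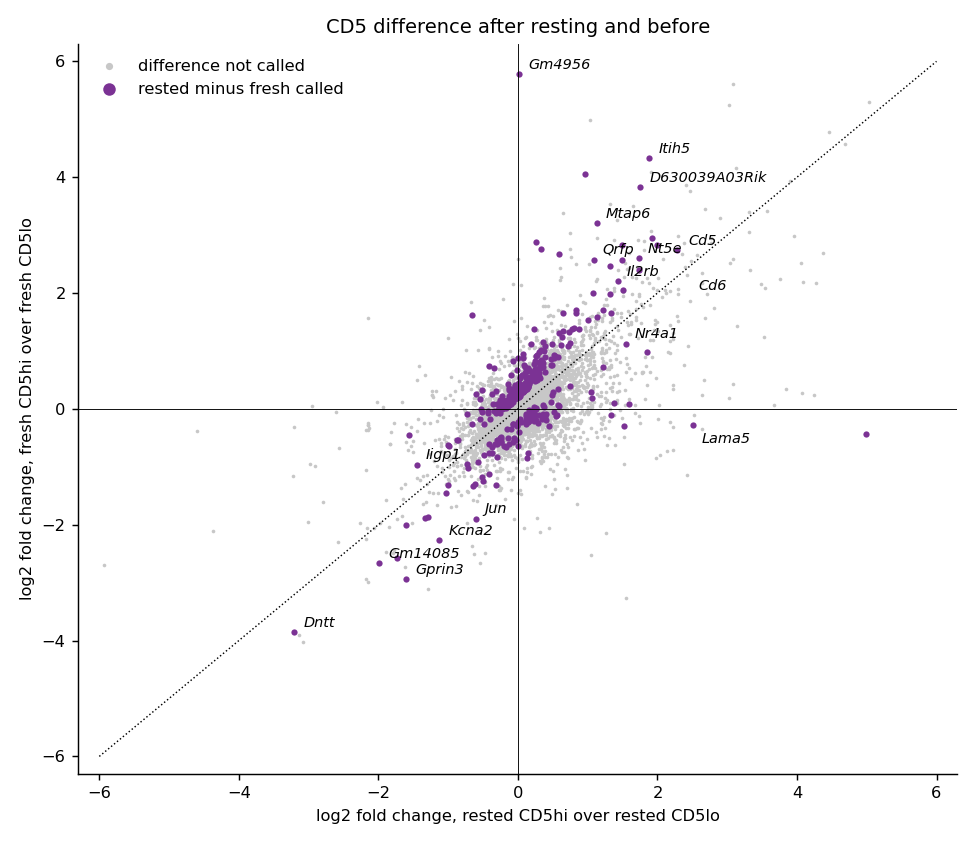
Log2 fold change of rested CD5hi over rested CD5lo (x) against that of fresh CD5hi over fresh CD5lo (y), for 12797 genes in the model of 16 naive libraries, with the 354 interaction calls in purple and equality as the dotted line. Itih5, D630039A03Rik and Gm4956 lie above the line with a smaller difference after rest, Lama5 lies near 0 when fresh, and Cd6 lies close to the line.

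Among genes lower in CD5hi, Gprin3 and Kcna2 (a potassium channel) were also closer after rest, with interactions of 1.33 and 1.14. Jun was -0.60 in rested and -1.89 in fresh cells, Gm14085 was -1.99 in rested and -2.66 in fresh cells, and Socs3 was -0.38 in rested and -0.77 in fresh cells. P4ha2, a collagen prolyl hydroxylase, and Ccdc164 were not called in the comparison of rested cells with 4 pairs. P4ha2 was -0.32 in rested and -1.32 in fresh cells, and Ccdc164 was 0.13 in rested and -0.85 in fresh cells, with interactions of 1.0 and 0.98. Without rested replicate 4, P4ha2 was lower in rested CD5hi (adjusted p = 0.00748). The interaction of P4ha2 was lost without fresh replicate 1 or 3 (adjusted p = 0.0573 and 0.079).

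Other differences were larger after rest. Lama5 was 2.5 in rested and -0.28 in fresh cells, an interaction of 2.79 ± 0.58 (adjusted p = 0.0154), which was lost without fresh replicate 2 or 4 (adjusted p = 0.0892 and 0.102). Tnfrsf4 was 1.22 in rested and 0.72 in fresh cells, and Osm was 0.57 in rested and 0.076 in fresh cells. Gadd45b was 1.06 in rested and 0.18 in fresh cells. Nr4a1 was 1.55 in rested and 1.13 in fresh cells, an interaction of 0.42 ± 0.094 (adjusted p = 0.0226) that was lost on leaving out any 1 fresh pair or rested replicate 1 (adjusted p = 0.0527 to 0.113). Falls that grew were those of Iigp1, at -1.45 in rested and -0.97 in fresh cells, Ly6a, at -1.0 and -0.62 in rested and fresh cells, and Ly6e, at -0.86 and -0.54. The interaction was also called for A130040M12Rik (-0.34) and for Tagap (-0.27), which was -0.20 in rested and 0.07 in fresh cells. For 12 more of the genes described above the interaction passed the test with all pairs and was lost on leaving out at least 1 pair. Of these, Cdt1 (-0.27) lost it without fresh replicate 3 or 4, Il2ra (0.53) without fresh replicate 2 or 3, Tnfrsf25 (-0.27) without fresh replicate 3 or rested replicate 1, and Ikzf2 (-1.14) without fresh replicate 3 or 4 or rested replicate 1 (adjusted p = 0.05 to 0.108). Dntt (0.65), Cd8b1 (0.40), Nrn1 (-1.1), Tnfrsf9 (-0.83), Fosb (1.51), Tec (0.31), Kif23 (0.56) and Pdk1 (0.21) each lost it without any 1 of 4 to 7 of the 8 pairs (adjusted p = 0.0501 to 0.16). Of the interactions named here, A130040M12Rik, Bbc3, Ccdc164, Cd8b1, Cdt1, D630039A03Rik, Dntt, Fosb, Gadd45b, Gm14085, Id2, Iigp1, Ikzf2, Il2ra, Jun, Kif23, Lama5, Ly6a, Ly6e, Nr4a1, Nrn1, Nt5e, Osm, P4ha2, Pdk1, Socs3, Sox4, Tagap, Tec, Tnfrsf25, Tnfrsf4 and Tnfrsf9 were not called without the pairing.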

How the data were processed

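Per the labels' protocols, polyadenylated RNA was made into TruSeq libraries and sequenced from both ends. The authors deposited a table of counts for 22068 gene symbols in 20 libraries, and the mm9 build, edgeR, featureCounts 1.4.5 of Subread and TopHat2 2.0.11 are credited to the submitters' processing notes. Of the deposited counts from 1 to 10, 62.3 to 65.1% per rested library were even, as when both mates of a fragment are counted. A deposited table of normalized values was not used.

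Counts of the 8 rested libraries were tested with edgeR 4.0.16 (R 4.3.3), with trimmed-mean scaling, its default filter and the replicate number as a block, leaving 3 residual degrees of freedom. P-values were adjusted by Benjamini-Hochberg over all genes tested, with calls made under 0.05. Errors of log2 fold changes are SE, the change over the root of its F. Replicate numbers come from the titles, and each same-numbered pair correlated at over 0.1, as did some pairs of unlike number. No source ties a replicate to 1 animal, so p-values measure the spread between these samples. On simulated counts (12073 genes) 83.6% of 1.5-fold, 95.4% of 2-fold and 100% of 4-fold changes were recovered, and 8.50% of calls were false. For the interaction (12621 genes) the shares were 81.5, 82.2 and 100%, with 6.42% false. Each simulation changed 200 genes, all by 1.5-, 2- or 4-fold, with a spread between pairs that was set and not estimated. In the data 1435 genes were called, with a median absolute log2 fold change of 0.363, and 446 of them changed by at least 1.5-fold. The simulated shares therefore do not cover the smaller changes that make up most calls.

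Members and the 42 gene lists were chosen with earlier results of these data known. Named genes were those of the sort, the 12 largest rises and falls without overlap at 5 CPM or more (predicted genes, antigen receptor segments and sex-linked genes left out), up to 4 members of each list at 1 CPM or more, and the 6 largest interactions of each sign at 5 CPM or more. Others were named after their values were seen. DESeq2 1.42.0 and limma-voom 3.58.1 were alternatives. A further marker of naive cells is not reported here.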

Additional observations from a re-analysis of the deposited data

Results flagged for a closer look

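In 7 of 220 groups of 4 libraries of a named gene, 1 library stood apart from the other 3 by the Dixon criterion, which chance meets in about 1 group in 20. Among rested CD5hi libraries, Btg2 was at 331 CPM in replicate 3, Gprin3 at 7.91 CPM in replicate 3, Chn2 at 6.15 CPM in replicate 2, Tnfrsf9 at 1.83 CPM in replicate 2, and Slc28a2 at 394 CPM in replicate 4. Among rested CD5lo libraries, Cdt1 was at 54 CPM in replicate 3 and Foxp3 at 21.6 CPM in replicate 2. The direction of each of these 7 genes was the same without that replicate pair.

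The CD5 difference of 44 named genes was itself different after rest, by the edgeR interaction test described above. The interaction (rested minus fresh, log2) was negative for genes whose CD5hi excess shrank, at -5.76 for Gm4956, -2.45 for Itih5, -2.08 for D630039A03Rik, -2.07 for Mtap6, -1.49 for Qrfp, -1.33 for Fibcd1, -1.02 for Ikzf4 and -0.87 for Nt5e. It was -0.82 for Ndrg1, -0.77 for Il2rb, -0.69 for Bbc3, -0.67 for Id2, -0.50 for Ubash3b, -0.49 for Sox4, -0.45 for Cd5, -1.14 for Ikzf2, -0.83 for Tnfrsf9 and -0.27 for Tnfrsf25. It was also negative where a CD5hi deficit grew, at -0.48 for Iigp1, -0.37 for Ly6a, -0.32 for Ly6e, -1.1 for Nrn1, -0.34 for A130040M12Rik and -0.27 for Cdt1. Where a deficit shrank it was positive, at 1.33 for Gprin3, 1.29 for Jun, 1.14 for Kcna2, 1.0 for P4ha2, 0.67 for Gm14085, 0.39 for Socs3, 0.65 for Dntt, 0.40 for Cd8b1, 0.56 for Kif23, 0.53 for Il2ra, 0.31 for Tec and 0.21 for Pdk1. Where an excess grew it was 1.51 for Fosb, 0.89 for Gadd45b, 0.50 for Tnfrsf4, 0.50 for Osm and 0.42 for Nr4a1. The fitted difference had opposite signs after rest and before for Lama5, Ccdc164 and Tagap, with interactions of 2.79, 0.98 and -0.27. Of the 44, 29 were called whichever pair was left out and 15 lost the call without at least 1 pair.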

How the results depend on the processing

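The count of 1435 calls (776 higher, 659 lower) became 495 (291 and 204) with no replicate block, and 2372 with the 16 naive libraries and blocks within states, where 1215 were lower. Leaving out 1 pair gave 657 to 2753 calls, 381 to 1388 of them higher and 276 to 1365 lower. Replicates 1 and 2 alone gave 2732 (1314 higher, 1418 lower) and replicates 3 and 4 alone 375 (238 and 137). DESeq2 with the block shared 1307 of its 1395 calls with the 1435, and limma-voom 1393 of its 1417. The interaction count of 354 became 42 with no replicate block, 60 with all 20 libraries and no block, and 204 to 824 on leaving out 1 pair. The cause of these shifts was not tested. Other counts under other size factors, filters, halved counts and the remaining alternatives stayed within 1.5 times. Of the named genes, 22 lost their call in rested cells with no replicate block, 22 with replicates 3 and 4 alone, 9 with all 20 libraries and no block, 2 with replicates 1 and 2 alone, and 7, 7 and 3 without replicate 1, 2 and 3, and no called gene changed direction. At totals of 38211406 to 64477566 counts per rested library, levels under about 1 CPM rest on the fewest counts.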

Other observations

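Counts of calls in further gene lists follow, beside 6.39% higher and 5.43% lower (11.8% together) over all genes tested. Of 29 chemokine and G protein-coupled homing receptors 8 rose and 6 fell in rested CD5hi, and of 31 adhesion molecules and integrins 4 rose and 5 fell. Of 25 S100, annexin and galectin genes 6 rose and 3 fell, of 30 RGS and phosphodiesterase genes 6 rose and 4 fell, and of 18 cytokines and TNF-family ligands 3 rose and 2 fell. Of 26 TGF-beta and SMAD genes 2 rose and 6 fell, and of 20 NF-κB genes none rose and 4 fell. Of 8 Ly6 family genes 1 rose and 4 fell. Of 31 calcium, calcineurin and NFAT genes 6 rose and 3 fell, with 1 stable call. Of 24 integrated stress response genes 5 rose and 1 fell, of 18 cyclin D, CDK4/6 and CDK inhibitor genes 4 rose and 1 fell, and of 17 ERK feedback genes 3 rose and 3 fell. Of 19 BCL2 family genes 3 rose and none fell. Of 36 chromatin and DNA methylation genes 5 rose and 2 fell, of 46 ribosome biogenesis genes 5 rose and 1 fell, and of 29 heat shock genes and chaperones 2 rose and 3 fell. The Notch pathway had 1 fall among 22 tested.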
